A study of Mus with 5 samples.

Results

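The neuregulin and ErbB genes comprise *Nrg1*, which encodes a ligand, and *Erbb2*, *Erbb3* and *Erbb4*, which encode receptor tyrosine kinases of the epidermal growth factor receptor family. These 4 genes were chosen by their Ensembl identifiers and not by their values, and 3 of them were among the 12857 genes with values. *Erbb2* (ENSMUSG00000062312), *Erbb3* (ENSMUSG00000018166) and *Erbb4* (ENSMUSG00000062209) are described here, whereas *Nrg1* (ENSMUSG00000062991) was not analysed here. RNA-seq values were compared between E14.5 ventricles and valves of 3 pools of transgenic embryos, labelled Nkx2.5CRE;Bmp2, and 2 pools of WT embryos, each pool made from 4 embryos. In the transgenic embryos, Cre expressed from the *Nkx2.5* locus removes a stop cassette, after which a CAG promoter in *Rosa26* drives a mouse *Bmp2* cDNA with an IRES-eGFP in cells that have expressed the Cre and in their descendants. The transgenic pools therefore carry the *Nkx2.5* Cre allele and the *Bmp2* transgene, and whether the WT embryos carried Cre is not given by their labels. For its survival counts the study crossed females homozygous for the Cre allele with transgenic males, so that siblings without the transgene carried Cre. Whether the WT pools came from that cross is not stated, so the effects of allele and transgene cannot be told apart here.

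Neuregulin 1 is made by the endocardium, the inner lining of the heart, and acts on neighbouring cells. It binds ErbB3 and ErbB4, which pair with ErbB2, a receptor with no known ligand of its own, and ErbB3 has little kinase activity and signals through its partner. In mice, loss of *Nrg1*, *Erbb2* or *Erbb4* prevents the growth of ventricular trabeculae, and loss of *Erbb3* leaves the valve cushions poor in mesenchyme. The study compared the transcripts of hearts in which *Bmp2* stays active with those of WT hearts, and the values of the receptors in that comparison follow.

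None of the 3 receptors differed between genotypes beyond the spread between pools. *Erbb2* stood at 156.4 ± 3.75 counts per 1000000 reads (CPM; SD, n = 3 pools) in transgenic and 152.8 ± 1.45 CPM (SD, n = 2 pools) in WT hearts, *Erbb3* at 17.5 ± 1.31 and 16.9 ± 2.07 CPM, and *Erbb4* at 58.0 ± 4.25 and 62.3 ± 3.22 CPM. In limma fitted to log2(CPM + 0.5) of all 12857 genes, 0 of the 3 passed the threshold for a call, 0.05 after Benjamini-Hochberg adjustment, and 0 had an unadjusted p under 0.05. Across all genes tested 2.82% were called. The counts of receptors called and of receptors with an unadjusted p under 0.05 were also 0 with edgeR's exact and quasi-likelihood tests and with DESeq2 on the reads. The values of the genotypes overlapped for all 3, whereas for 35.7% of all genes they did not. *Bmp2* itself was at 23.0, 27.1 and 23.3 CPM in transgenic pools 1, 2 and 3 and at 14.1 and 10.2 CPM in WT pools 1 and 2, so that its difference followed the labels.

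Reads were recovered as whole numbers for 100% of values in each of the 5 libraries, with 7427905 to 10564780 reads in a library. Each pool was counted as 1 replicate. Every pair of pools differed by more than read sampling gives, with a chi-square per gene of 2.24 between the WT pools and 3.41 to 3.96 between transgenic pools, against 1 for sampling alone. Among genes that the available tables name, cardiac and vascular markers were present, with *Ryr2*, the calcium release channel of cardiomyocytes, at 425 to 556 CPM and *Cdh5*, the cadherin of endothelium, at 204 to 275 CPM. Values in bulk tissue do not tell fewer cells of a type from less RNA per cell.

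*Erbb2*, the co-receptor, lies on chromosome 11 of GRCm38, from 98412484 to 98437716 in RefSeq, where 1 other gene, *Mien1*, overlaps it. Its values were 156.4, 160.2 and 152.7 CPM in transgenic pools 1, 2 and 3 and 151.8 and 153.9 CPM in WT pools 1 and 2. Transgenic pools 1 and 2 lay above both WT pools, and transgenic pool 3 lay between them. These values rest on 1148 to 1635 reads in a library. The log2 fold change was 0.03 ± 0.06 SE (limma adjusted p = 0.812), with a 95% interval from -0.09 to 0.15, or from 0.943-fold to 1.11-fold. Among the 1121 genes within 0.5 of its mean log2 level, the smallest change that was called had a size of 0.22 on the log2 scale, which lies outside this interval. The pools of a genotype differed for *Erbb2* by an SD of 0.03 (transgenic) and 0.01 (WT) on the log2 scale, against 0.04 in each from the counting of reads alone.

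*Erbb3*, the receptor known from cushion mesenchyme and from neural crest derivatives such as Schwann cells, lies on chromosome 10 from 128567523 to 128589635, where the annotation places 1 other gene, a microRNA, within the same span. It was at 18.2, 18.4 and 16.01 CPM in transgenic pools 1, 2 and 3 and at 15.4 and 18.4 CPM in WT pools 1 and 2. WT pool 1 was the lowest of the 5. WT pool 2 and transgenic pool 2 were level, at 18.36 CPM, and transgenic pools 1 and 3 fell between the WT pools. *Erbb3* had the fewest reads of the 3 receptors, 128 to 190 in a library, and counting alone gives an SD of 0.11 to 0.12 on the log2 scale, against 0.11 between transgenic and 0.17 between WT pools. The log2 fold change was 0.05 ± 0.12 SE (limma adjusted p = 0.867; 95% interval from -0.20 to 0.31, or 0.870-fold to 1.24-fold). Its sign rested on WT pool 1. Without WT pool 1 the log2 fold change was -0.07 and without WT pool 2 it was 0.17, with limma adjusted p-values of 0.876 and 0.668. Among 2297 genes of like level the smallest called change had a size of 0.40, outside the interval.

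*Erbb4*, the receptor that binds neuregulins and has an active kinase, spans 1076693 bases of chromosome 1, from 68031884 to 69108576, with 2 other annotated genes in the span. It was at 58.5, 53.6 and 62.0 CPM in transgenic pools 1, 2 and 3 and at 60.0 and 64.6 CPM in WT pools 1 and 2. The highest value was that of WT pool 2 and the lowest that of transgenic pool 2, while transgenic pool 3 lay between the WT pools. These values rest on 482 to 612 reads. The log2 fold change was -0.10 ± 0.08 SE (limma adjusted p = 0.513, unadjusted p = 0.196), and 49.9% of all genes had a change of smaller size. The 95% interval ran from -0.27 to 0.06, or from 0.832-fold to 1.04-fold. For *Erbb4* the lower bound, -0.266, lay just past the size of the smallest called change among 2591 genes of like level, 0.258. The value was below 0 without each pool in turn, from -0.16 without WT pool 1 to -0.05 without transgenic pool 2. Without transgenic pool 2, *Erbb4* had a limma adjusted p of 0.842. *Erbb4* was the receptor with the widest spread relative to counting, with an SD of 0.11 between transgenic pools on the log2 scale against 0.06 from counting.

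**Figure D1:**
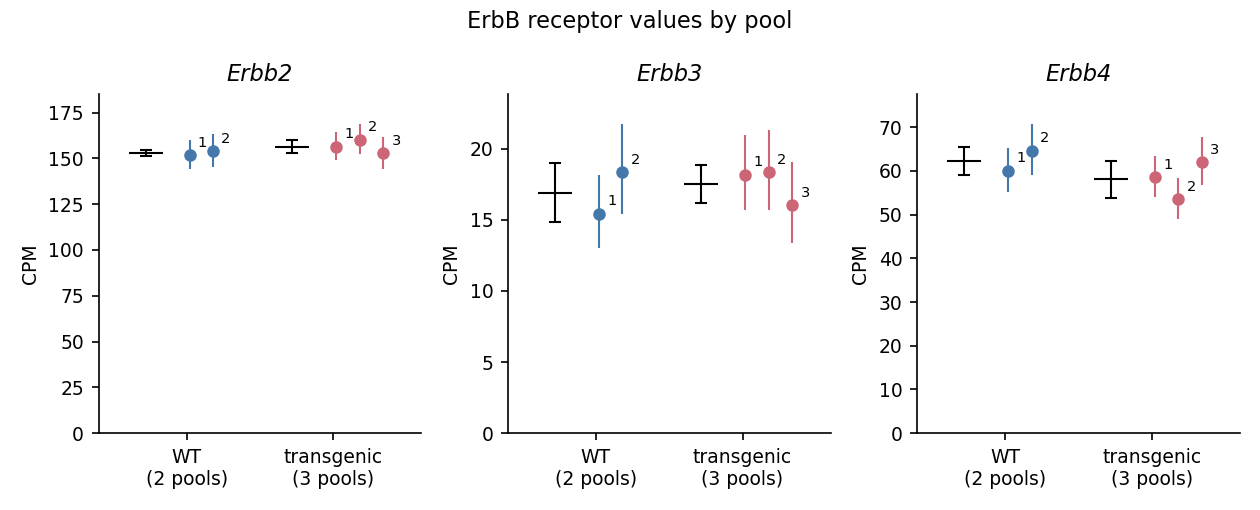
CPM of *Erbb2*, *Erbb3* and *Erbb4* in each pool, numbered as labelled, on axes that start at 0 and differ in range between panels. Coloured bars are exact 95% Poisson intervals of the reads, and the black line and bars to the left are the mean and SD of each genotype. The pools of the genotypes overlap in all 3 panels, and *Erbb4* in transgenic pool 2, at 53.6 CPM, is the lowest value of its panel.

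**Figure D2:**
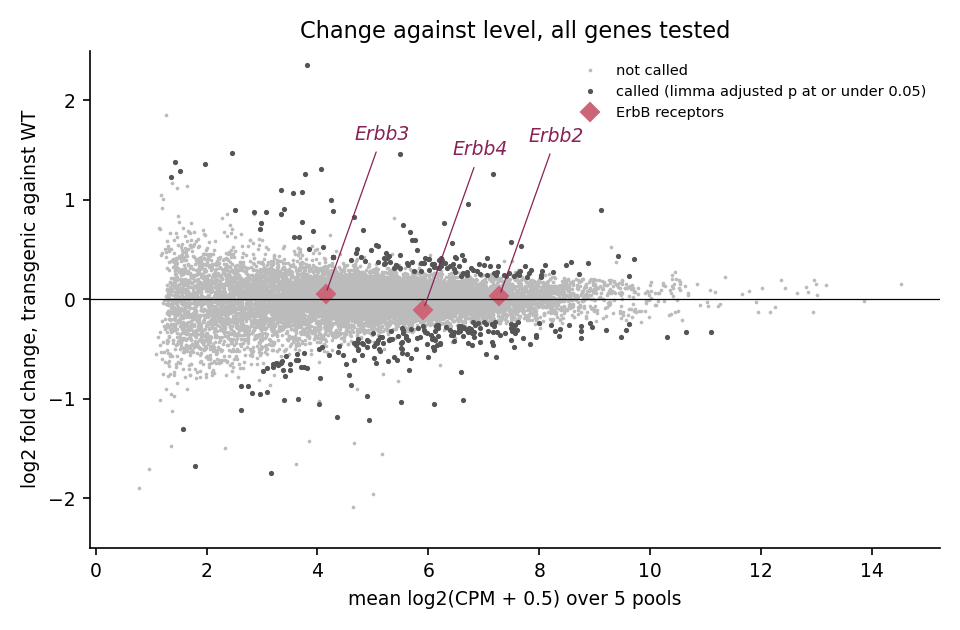
Log2 fold change of transgenic against WT hearts plotted over the mean log2(CPM + 0.5) of the 5 pools for all genes tested, with 15 genes beyond the vertical axis not drawn. The 3 receptors, shown as diamonds, lie near 0 inside the cloud of genes that were not called, and their places along the horizontal axis are not corrected for transcript length.

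The median log2 fold change of the 3 receptors was 0.03, against 0.00 for all genes tested. The standard errors of *Erbb2*, *Erbb3* and *Erbb4* were 0.06, 0.12 and 0.08, near the medians of 0.06, 0.12 and 0.07 for genes of like level. Levels were not compared between the receptors, because the lengths of their transcripts were not at hand. Ratios of receptors within a library were compared between genotypes instead, since a ratio does not depend on how the library was scaled. The log2 ratio of *Erbb4* to *Erbb2* was -1.41, -1.57 and -1.29 in transgenic pools 1, 2 and 3 and -1.33 and -1.25 in WT pools 1 and 2, with transgenic pool 3 between the WT pools. The means were -1.42 ± 0.14 (SD, n = 3) and -1.29 ± 0.06 (SD, n = 2), a difference of -0.14 in the log2 ratio (two-sided exact permutation test, p = 0.4, adjusted over the 2 ratios p = 0.8). The log2 ratio of *Erbb3* to *Erbb2* was -3.13 ± 0.08 (SD, n = 3) in transgenic and -3.14 ± 0.16 (SD, n = 2) in WT hearts (exact permutation p = 1, adjusted p = 1). With 3 pools against 2 the smallest two-sided p of this test is 0.2, so it cannot pass 0.05.

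**Figure D3:**
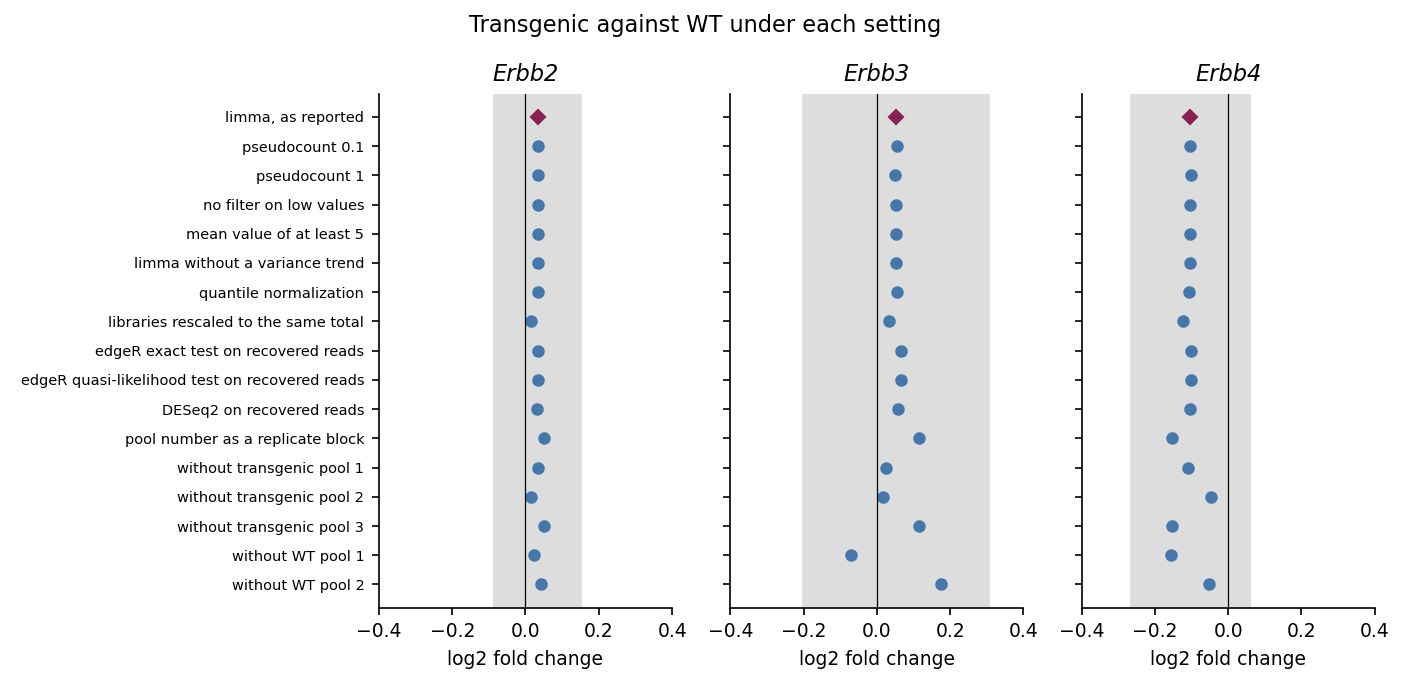
Log2 fold change of each receptor under each choice of processing (rows), with the 95% interval of the limma fit as a grey band. All values of *Erbb2* lie above 0 and all values of *Erbb4* below 0, *Erbb3* falls below 0 in 1 setting, without WT pool 1, and every point lies inside its band.

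Of 65 other genes listed for the neuregulin and ErbB pathway, 10 could be matched to an identifier by name. The names come from the list of genes that the study reports as changed in these same libraries, so the share that was called is not independent evidence. It was 7 of the 10, all lower in transgenic hearts, against 1.59% of all genes called as lower. For all 10 the pools of the genotypes did not overlap, against 35.7% of all genes. The 10 were selected as changed, so neither count is a like comparison with the share over all genes. The median log2 fold change of the 10 was -0.48. No name was matched among the 10 other ErbB ligands, the receptor *Egfr* or the 4 proteases that release neuregulin. Pathway genes without a match were not found by name in the study's list, so the 10 do not stand for the pathway.

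Among adaptors and kinases below the receptors, 3 of 26 genes were matched, each lower in value, and 2 were called. *Irs1* and *Irs2*, which encode docking proteins best known from insulin receptor signalling, were lower. *Irs1* was at 66.7, 52.7 and 58.7 CPM in transgenic and at 80.8 and 86.9 CPM in WT pools (log2 fold change -0.50 ± 0.09 SE, limma adjusted p = 0.00447). *Irs2* was at 9.85, 7.73 and 9.63 CPM against 15.8 and 13.3 CPM (log2 fold change -0.65, limma adjusted p = 0.0262), a call lost without transgenic pool 2 (limma adjusted p = 0.085), without WT pool 1 (0.299) or WT pool 2 (0.132), without a variance trend (0.167) and with DESeq2 (0.0682). *Pdpk1*, the kinase that phosphorylates Akt, was at 84.9 to 97.7 CPM in transgenic and at 113 and 110 CPM in WT pools, a difference that was not called (limma adjusted p = 0.0526).

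Among inhibitors of ErbB or Ras signalling, 2 of 13 genes were matched, each lower in value, and 1 was called. *Cbl*, a ubiquitin ligase that takes activated receptor tyrosine kinases to degradation, was at 21.1, 16.7 and 18.3 CPM in transgenic pools and at 30.2 and 33.8 CPM in WT pools. Each transgenic pool was below both WT pools, and the log2 fold change was -0.76 ± 0.11 SE (limma adjusted p = 0.00132). *Spry4*, an inhibitor of Ras and MAP kinase signalling, was at 15.8, 12.9 and 16.3 CPM against 19.8 and 21.4 CPM and was not called (log2 fold change -0.45, limma adjusted p = 0.0595).

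Of 11 cardiac genes known to act before or after neuregulin in the endocardium and trabeculae, 5 were matched. Each of the 5 was lower in value, and 4 were called. *Notch1*, the endocardial receptor that acts before *Nrg1* in trabeculation, was at 80.3, 70.5 and 79.5 CPM in transgenic and at 99.1 and 97.3 CPM in WT pools (log2 fold change -0.35, limma adjusted p = 0.0104). *Notch4* was not called (log2 fold change -0.34, limma adjusted p = 0.0621). *Bmp10*, a growth factor of trabecular myocardium, had the largest difference of the 10 matched genes, at 15.2, 10.7 and 17.4 CPM against 33.4 and 32.2 CPM, and a log2 fold change of -1.18. *Etv1*, a transcription factor of the fast-conducting trabecular myocardium that neuregulin is known to induce, was at 28.6, 28.9 and 30.9 CPM against 39.9 and 40.5 CPM. The fall was -0.44 ± 0.08 SE on the log2 scale (limma adjusted p = 0.00816). *Gja5*, a gap junction gene of trabecular myocardium and of arterial endothelium, fell by 0.55 on the log2 scale, to between 98.6 and 135.3 CPM from 162 and 168 CPM (limma adjusted p = 0.00494). With DESeq2 *Gja5* was not called (adjusted p = 0.0925).

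**Figure D4:**
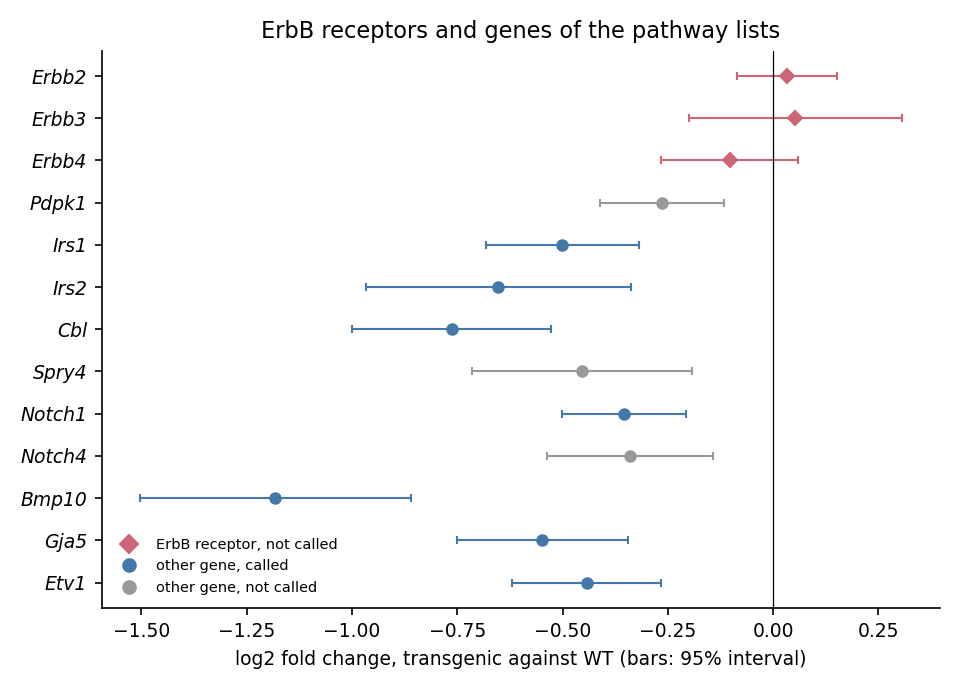
Log2 fold change of transgenic against WT hearts with 95% intervals from limma for the 3 receptors (diamonds) and the 10 named pathway genes (circles, blue where called). The intervals of the receptors include 0 and those of the 10 genes, which the study chose from these libraries, lie below 0.

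With WT pool 1 or WT pool 2 left out, 1 of the 10 pathway genes was called in each case, and without a variance trend in limma 0 of 10, against 7 in the fit above. On the reads, DESeq2 called 5, edgeR's quasi-likelihood test 8 and edgeR's exact test all 10. The study's list, from which the 10 were named, was itself made with edgeR on these libraries, so edgeR's counts here repeat that selection. The receptors were called in 0 of the 16 alternatives, which are not independent checks. Without a variance trend only 10 of all 12857 genes were called, and dropping the filter repeats the fit above.

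The endothelial markers that could be matched were lower, as were the matched pathway genes. Of 12 such markers, 7 were matched (*Cdh5*, *Tie1*, *Kdr*, *Flt4*, *Plvap*, *Sox18* and *Mmrn2*), again from the study's list of changed genes. Markers without a match were not found by name in that list, so the 7 do not stand for endothelial markers as a class. All 7 were lower in value, with a median log2 fold change of -0.41, and the calls numbered 4 (*Tie1*, *Kdr*, *Flt4* and *Plvap*). All 4 calls were lost without WT pool 1 (limma adjusted p from 0.0525 for *Plvap* to 0.280 for *Tie1*), without WT pool 2 (0.0703 to 0.219 for the same genes) and without a variance trend. The call of *Tie1* was lost also without transgenic pool 2 (0.0624) and with quantile normalization (0.0520). The summed level of the 7 was 568 to 676 CPM in transgenic and 817 and 818 CPM in WT pools. Transgenic pool 2 was the lowest of the transgenic pools for all 7, for 9 of the 10 pathway genes and for *Erbb4*. It was the highest of the 5 pools for *Erbb2* and the lowest transgenic pool for 34.2% of all genes. The 7 markers and 10 genes were listed by the study as lower in these libraries, so that share is not a like comparison for them. Transgenic pool 2 also lay furthest from the WT pools, with a chi-square per gene of 8.07 and 7.31. For transgenic pools 1 and 3 the chi-square ran from 3.94 to 5.43. The part of endothelial cell number in the values of the markers and pathway genes was not tested. Markers of Schwann cell precursors and red cells were not matched by name. Of 6 genes listed for cushion and valve mesenchyme, where *Erbb3* acts, 2 were matched. *Tbx20*, a transcription factor gene that is expressed in myocardium too and so does not mark the cushions alone, rose from 670 and 739 CPM in WT to between 896 and 954 CPM in transgenic pools (log2 fold change 0.41, limma adjusted p = 0.00162), and *Pdgfra* fell from 126 and 127 CPM to between 92.0 and 105.2 CPM (log2 fold change -0.34, limma adjusted p = 0.00919). Of 8 cardiomyocyte markers, for the cells in which *Erbb2* and *Erbb4* act, 1 was matched. This gene, *Ryr2*, fell by 0.28 on the log2 scale (limma adjusted p = 0.0175). The other cardiomyocyte markers were not found by name in the study's list of changed genes, so *Ryr2* does not stand for the class. Of 5 epicardial markers, 1 was matched, *Tbx18*, which rose by 0.37 (limma adjusted p = 0.00476). Without WT pool 1 the calls of *Tbx20*, *Pdgfra*, *Ryr2* and *Tbx18* were lost (limma adjusted p from 0.156 to 0.222), and without WT pool 2 those of the last 3 (0.0549 to 0.245). All of these markers come from the same list of changed genes, and their part in the values of the receptors was not tested.

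The named genes most like each receptor over the 5 libraries were sought by Pearson's r of log2(CPM + 0.5) among the 405 genes with a name from the study's list. For *Erbb4* they were *Mmrn2* (r = 0.94) and *Scand1* (r = 0.90). *Erbb2* was followed most closely by *St3gal5* (r = 0.93) and *Ankrd1* (r = 0.92). *Erbb3* was closest to *Cox7c* and *Ankrd1*, with r = 0.71 for both, a weaker likeness. With 5 points such values are common, since 186, 236 and 1005 of the 12856 other identifiers were at least as close to *Erbb4*, *Erbb2* and *Erbb3* as the first gene named. Between receptors r was -0.82 for *Erbb2* and *Erbb4*, 0.75 for *Erbb2* and *Erbb3* and -0.27 for *Erbb3* and *Erbb4*. The points share their libraries and their scaling, and these values are a description.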

How the data were processed

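RNA of E14.5 ventricles and valves, with the atria removed, was pooled from 4 embryos per pool. By the study's methods, adaptors were trimmed with cutadapt, single-end reads were quantified with RSEM over GRCm38. The authors excluded 1 WT pool that clustered poorly with the others, so the spread between the WT pools used here is that of pools kept for their likeness. The submitters' processing notes list RSEM 1.2.19, Bowtie 0.12.9 and edgeR 3.0.8. The authors deposited CPM values (counts per 1000000 reads of a scaled library size), with 12857 genes in the table. Columns were matched to pools by title. Dividing by the value of 1 read gave whole reads (within 0.01 read) for 100% of values.

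Genotypes were compared with limma 3.58.1 (R 4.3.3) after taking log2(CPM + 0.5) (eBayes with a variance trend, no covariates), with Benjamini-Hochberg adjustment over all genes. The pseudocount makes fold changes of low genes too small. A filter of at least 1 CPM in 2 libraries removed 0 genes. edgeR 4.0.16 and DESeq2 1.42.0 were run on the recovered reads. Tests were checked on simulated data with changes far larger than those of the receptors, so the check does not cover changes of their size. Nothing in the labels says whether pools share litters, so p-values measure the spread between pools. Poisson intervals (95%) cover counting error only. Names beyond the 4 members come from the study's list of changed genes (405 symbols). Positions come from RefSeq (GRCm38.p6), matched by symbol. Whether libraries keep strand is not given in the sources used here, so reads of *Erbb2* and the overlapping *Mien1* may not be told apart. Pathway and marker genes with a name were reported, except for 1 listed gene that is not reported here and is left out of the list sizes and counts, and the 2 named genes most correlated with each receptor. The members and lists were chosen with earlier results of these data known.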

Additional observations from a re-analysis of the deposited data

How the results depend on the processing

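Under 16 alternatives, *Erbb2* kept a log2 fold change of 0.01 to 0.05 and *Erbb4* one of -0.16 to -0.05, with adjusted p-values from 0.702 to 0.961 and from 0.314 to 0.882. *Erbb3* ranged from -0.069, without WT pool 1, to 0.17, without WT pool 2 (adjusted p-values from 0.668 to 0.979). The difference in the log2 ratio of *Erbb3* to *Erbb2* was 0.02 and ran from -0.092 (without WT pool 1) to 0.13 with a pool left out, and was -0.0078 without transgenic pool 1. The number of genes called, 362, was 10 without a variance trend, 229 with DESeq2, and 43 to 464 with a pool left out; with a WT pool left out, the lone WT pool is assumed to vary like the others. With the pool number as a replicate block, 655 genes were called and 0 receptors, with 9 of the 10 pathway genes. Transgenic pool 3 has no WT pool of its number, so in that fit it added nothing to the differences. The fold changes of the receptors were those found without transgenic pool 3. The deviations of same-numbered pools had correlations of -0.03 and -0.05. With 2 WT pools the WT deviations mirror each other, so whether same-numbered pools share a litter or batch was not tested. For *Bmp2* and the named genes that are no receptor, 283 of 352 values under an alternative stayed on the same side of the threshold, 48 lost the call, 21 gained it and 0 changed sign. The alternatives are not all distinct. Dropping the filter repeats the fit above, since the filter removed 0 genes, and this repeat is counted among the 16 alternatives and the 352 values. The causes of the changed calls were not tested. Alternatives for *Nrg1* and its ratio were not run. Depth limits *Erbb3* most.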
